A study of Mus musculus with 4 samples.

Results

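The genes described here are p53 targets and senescence genes in the lungs of mice that breathed cigarette smoke. They are 10 genes chosen by name: Cdkn1a, Cdkn2a, Mdm2, Gdf15, Trp53inp1, Bbc3, Phlda3, Ccng1, Sesn2 and Zmat3. A gene was taken from the array if at least 1 feature carried its symbol and no other, and 9 of the 10 had such a feature, 1 each. Gdf15 is not analysed here. Of the 9, 8 lay above the signal floor, which is the 40th percentile of the mean log2 intensity of 30142 genes (5.82), and were tested among 18084 genes. Cdkn2a lay just under it with a mean log2 intensity of 5.62, while the dimmest gene above it, Phlda3, had 6.60.

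Whole-lung RNA came from male C57BL mice, an inbred laboratory strain, that were 10 weeks old when exposure began. The groups were mainstream cigarette smoke for 2 weeks (5 mice, 12 weeks old at the end), clean air for 2 weeks (5 mice, 12 weeks old), mainstream smoke for 4 weeks (4 mice, 14 weeks old) and clean air for 4 weeks (5 mice, 14 weeks old), with smoke given for 1 h per day on 5 days per week. The lungs of a group were mixed and hybridised to 1 array, so each group was 1 pool, no group had a replicate, and differences from mouse to mouse within a pool are hidden. With only 4 arrays, precision is limited throughout.

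The transcription factor p53, encoded by Trp53 in the mouse, is stabilised after DNA damage and other stress and switches on genes that halt the cell cycle, repair damage or kill the cell. Mdm2, one of its targets, is the ubiquitin ligase that marks p53 for degradation and so closes a feedback loop. Senescence is a lasting arrest of the cell cycle, held by the p53 target p21 (Cdkn1a) and by p16 (from the Cdkn2a locus), in which cells often secrete cytokines and proteases. Senescent cells are studied in the lung because they accumulate in age and in smoking-related disease.

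Promoter windows from RefSeq (assembly GRCm38.p6, 250 bases before to 50 after each annotated start) were available for 8 of the 10 genes, 13 windows in all. They were searched for the 10-base p53 recognition unit, whose letters allow a choice at most positions and which p53 binds in pairs. At least 1 unit was present in 3 of the 13 windows and in 8.36% of all 32851 windows of the same length. The 3 windows are shown because they belong to the best known target of p53, to the p53 inhibitor and to a further target, whose transcripts are compared below. Capitals mark the recognition units. The Cdkn1a window is that of the upstream start, chr17:29090729-29091028 on the plus strand. The Ccng1 window is chr11:40755237-40755536 and the Mdm2 window chr10:117710709-117711008, both on the minus strand.
Cdkn1a: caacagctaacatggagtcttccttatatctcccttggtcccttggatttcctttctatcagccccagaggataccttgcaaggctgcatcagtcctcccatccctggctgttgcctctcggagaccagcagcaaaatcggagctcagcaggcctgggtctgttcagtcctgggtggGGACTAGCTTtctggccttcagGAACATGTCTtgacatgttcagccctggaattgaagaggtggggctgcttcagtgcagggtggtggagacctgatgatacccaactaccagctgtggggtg
Ccng1: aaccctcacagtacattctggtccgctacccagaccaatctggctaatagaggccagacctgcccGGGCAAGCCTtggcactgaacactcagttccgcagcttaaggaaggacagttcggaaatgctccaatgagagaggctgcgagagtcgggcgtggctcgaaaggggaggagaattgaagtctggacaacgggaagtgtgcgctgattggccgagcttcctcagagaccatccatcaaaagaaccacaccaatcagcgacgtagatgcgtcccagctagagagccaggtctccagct
Mdm2: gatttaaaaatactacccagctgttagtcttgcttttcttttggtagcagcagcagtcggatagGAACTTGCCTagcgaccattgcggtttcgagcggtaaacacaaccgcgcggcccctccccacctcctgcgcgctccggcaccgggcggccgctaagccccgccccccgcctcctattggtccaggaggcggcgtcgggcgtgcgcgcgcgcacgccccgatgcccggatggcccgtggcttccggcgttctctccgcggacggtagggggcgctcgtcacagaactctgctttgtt
In Cdkn1a the units begin 73 and 51 bases before the start, and the second is followed at once by a further 10 bases with 1 base off the unit. In Ccng1 the unit begins 185 bases before the start and is preceded at once by 10 bases with 1 base off. In Mdm2 it begins 186 bases before the start and has no such partner. A pair, with at most 13 bases between the units and at most 1 base off, was found in 1.09% of all windows. The letters TGTTCT, part of the glucocorticoid receptor element, were found on either strand in 0 of the 13 windows and in 19% of all windows, and the GC box GGGCGG in 9 of the 13 and in 35.7%. A match, or its absence, is a description of the letters in these windows only.

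All 9 alveolar type 2 markers, 8 alveolar type 1 markers and 8 endothelial markers looked for lay above the floor. So did all 9 T and NK cell, 7 B cell and 6 cardiac muscle markers with a feature, so this does not tell lung from another tissue. The median intensity was 58.8 to 61.7 on the 4 arrays. Among markers of other cell types, 5 of 8 tested alveolar macrophage markers rose, and their summed intensity was 56003.8 and 78374.9 in the 2 smoke pools, against 20777.3 and 25858.5 in the 2 control pools. The other 3 were Fabp4 at 0.30, Siglecf at -0.0025 and Krt79 at -0.32. Of 10 monocyte and interstitial macrophage markers 5 rose, with sums of 61513.1 and 79242.6 in smoke, against 50883.4 and 89387.2 in control. The lower 4-week sum in smoke came from Ly6c2, the only marker of the list lower in smoke at 4 weeks (-0.25). The list's median difference at 4 weeks was 0.88. Those that did not pass were Adgre1 at 0.71, Ccr2 at 0.65, Cx3cr1 at 0.47, Csf1r at 0.27 and Ly6c2 at -0.0014. The summed intensity of 8 endothelial markers was 242812 and 220620 in smoke, against 273272 and 274929 in control, and 1 of them fell. After median centring the calls numbered 1 for alveolar macrophage markers, 0 for monocyte and interstitial macrophage markers and 0 for endothelial markers, and after cyclic loess 3, 0 and 0. The part of these shifts in the results on the 10 genes was not tested. In whole lung, fewer cells of a type and less RNA per cell cannot be told apart.

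The question asked of the 10 genes was whether smoke shifted the p53 and senescence programme. Of the 8 genes tested, Cdkn1a fell, 7 did not pass and 0 rose. A gene is said to have risen or fallen if limma, fitted to the 4 pools with terms for smoke and duration, gave a p below 0.05 after Benjamini-Hochberg adjustment over all 18084 genes. Of all genes tested, 0.315% passed lower and 1.15% higher. The fit sets the smoke effect against how much it changed between the durations, with 1 residual degree of freedom and a spread shared across genes. An effect given with ± is log2 smoke minus control with its standard error. The median effect was -0.05 over the 8 genes and 0.00 over all genes tested, and 6 of the 8 lay within 0.15 of 0.

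**Figure D1:**
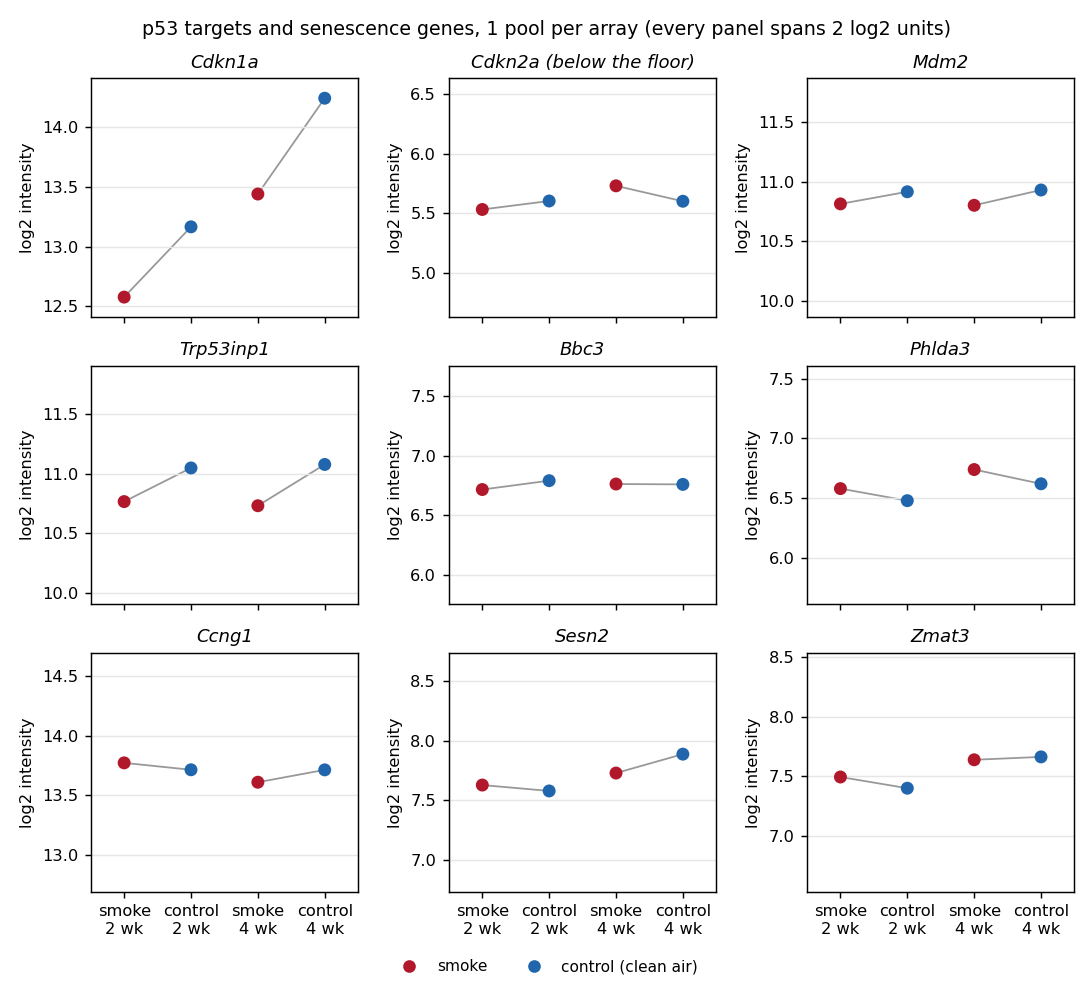
Log2 intensity of the 9 genes with a feature, 1 point per pool (red smoke, blue clean air), with a line joining the pools of the same duration. Every panel spans the same 2 log2 units. Cdkn1a spreads over 1.67 units, with the smoke pool under its control at each duration, while the other 8 genes spread over 0.35 units or less.

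Among the genes of cell cycle arrest, Cdkn1a encodes p21, the inhibitor of cyclin-dependent kinases through which p53 stops the cell cycle. Its intensity was 6106 in the 2-week smoke pool and 9186 in the 2-week control pool. At 4 weeks it was 11118 in the smoke pool and 19405.5 in the control pool. The smoke pool was the lower one at each duration, but the groups overlapped, since the 4-week smoke pool lay above the 2-week control pool. On the log2 scale the difference was -0.59 at 2 weeks, which is 1.5-fold lower, and -0.80 at 4 weeks, which is 1.75-fold lower. Over both durations Cdkn1a fell by 0.70 ± 0.109 log2 units (limma, adjusted p = 0.0418), a mean of 1.62-fold, with a 95% interval of -0.96 to -0.43. It had the 82nd most negative effect of the 18084 genes. Of all genes tested 265 passed, against 8 after median centring and 24 after cyclic loess. For Cdkn1a the adjusted p was 0.127 after median centring, 0.128 after cyclic loess and 0.0579 with no floor, so the call was lost there, with effects of -0.65 to -0.70. It was also lost without each pool in turn, in fits that have no duration term, with effects of -0.26 and -1.13 without the 2-week or the 4-week smoke pool and of -1.24 and -0.16 without the 2-week or the 4-week control pool.

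Cdkn1a differed more between the 2 durations than between smoke and clean air. The 4-week control pool was 2.11-fold above the 2-week control pool (log2 difference 1.08), and the 4-week smoke pool was 1.82-fold above the 2-week smoke pool (0.86). Cdkn1a was the only one of the 8 genes tested to differ at least 1.5-fold in either comparison. Of all genes tested, 1.85% were higher and 2.25% lower by as much at 4 weeks between the control pools (4.09% either way), and 1.35% were higher and 1.79% lower between the smoke pools (3.14%). The pools at 4 weeks came from mice 2 weeks older, so that age and duration cannot be told apart. The 4-week control pool also stood apart in markers of other cells. Of 8 neutrophil markers tested, 6 were at least 1.5-fold higher there than in the 2-week control pool, and the list's summed intensity was 5644.65 against 2999.73. Cardiac muscle markers, of which 6 were tested and 1 was higher by as much, summed to 16796.2 in the 4-week and 12651.8 in the 2-week control pool, and to 9392.23 and 10434.4 in the 4-week and 2-week smoke pools. The 1 erythroid marker tested, Alas2, was like Cdkn1a lowest in the 2-week smoke pool and highest in the 4-week control pool, at -0.45 and 0.52 log2 units from its mean. The part of these markers in the level of Cdkn1a was not tested. Without the duration term the effect of -0.70 had an adjusted p of 0.971. The smoke difference itself was 0.21 log2 units more negative at 4 than at 2 weeks. This change was not tested, and 36.0% of genes changed by more.

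Cdkn2a encodes p16 and, from another reading frame, p19Arf, an inhibitor of Mdm2. Its log2 intensity was 5.53 in the 2-week smoke pool and 5.60 in its control. At 4 weeks it was 5.73 in the smoke pool and 5.60 in the control pool. The pools overlapped and the 4 values lay within 0.20 log2 units, all under the floor, so no change was detectable at this signal. The locus had 1 feature, which does not tell the products of the 2 annotated starts apart. Its neighbour Cdkn2b, the gene of the related inhibitor p15, had an effect of -0.03 ± 0.119 (limma, adjusted p = 0.974).

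Mdm2 and Ccng1 act back on p53. Mdm2 had log2 intensities of 10.81 and 10.80 in the 2-week and 4-week smoke pools, against 10.91 and 10.93 in the control pools. Ccng1, the gene of cyclin G1, which recruits a phosphatase to Mdm2, had 13.77 and 13.61 in the smoke pools, against 13.71 in each control pool. The smoke pools lay below both control pools for Mdm2 and on either side of them for Ccng1. The effects were -0.11 ± 0.101 for Mdm2 (95% interval -0.36 to 0.13) and -0.02 ± 0.105 for Ccng1 (-0.28 to 0.23). Under cyclic loess the Ccng1 effect was 0.025, so it has no settled direction. As a ratio of smoke to control, the Mdm2 interval runs from 0.780 to 1.09.

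Trp53inp1, Bbc3 and Phlda3 belong to the cell death arm. Trp53inp1 encodes a nuclear stress protein that promotes p53 activity and cell death. Its log2 intensity was 10.77 and 10.73 in the 2-week and 4-week smoke pools, against 11.05 and 11.08 in the control pools. Both smoke pools lay below both control pools, and the difference was nearly alike at the 2 durations, at -0.28 and -0.35. The effect of -0.31 ± 0.101, a mean of 1.24-fold lower, did not pass over all genes (limma, adjusted p = 0.285). Among alternatives with the same 4 pools, the lowest adjusted p was 0.0683, with only protein-coding genes in the fit. Smoke pools below both controls were seen in 2 of the 8 genes tested, Mdm2 and Trp53inp1, and in 16.8% of all genes tested, while 0 of the 8, and 15.7% of all genes, had both smoke pools above both controls.

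Bbc3 encodes Puma, a BCL2-family protein that triggers apoptosis. Its log2 intensity was 6.72 and 6.76 in the smoke pools, against 6.79 and 6.76 in the control pools at 2 and 4 weeks. The 4 values lay within 0.07 log2 units of each other, a narrower range than in 96.6% of genes tested. Phlda3, which restrains the survival kinase AKT, had 6.58 and 6.74 in the smoke pools, against 6.48 and 6.62 in the control pools. It was higher in smoke at both durations, by 0.10 and 0.12, but the pools overlapped and the effect of 0.11 ± 0.101 did not pass (limma, adjusted p = 0.794). Its 95% interval of -0.13 to 0.35 ends at 1.28-fold higher.

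Sesn2 and Zmat3 complete the set. Sesn2 encodes sestrin 2, which lowers mTORC1 activity under stress and is a target of ATF4 as well as of p53. Its log2 intensity was 7.63 and 7.73 in the smoke pools, against 7.58 and 7.89 in the control pools. Zmat3, an RNA-binding zinc-finger protein, had 7.50 and 7.64 in the smoke pools, against 7.40 and 7.66 in the control pools. For each gene the smoke pool was the higher one at 2 weeks and the lower one at 4 weeks. The effects were -0.05 ± 0.109 for Sesn2 and 0.03 ± 0.103 for Zmat3. Between the control pools the difference, 4 weeks minus 2 weeks, was 0.31 log2 units for Sesn2 and 0.26 for Zmat3. A larger difference of either sign was seen in 17.9% of genes tested for Sesn2 and in 23.4% for Zmat3. The sign was that of Cdkn1a, shared by Phlda3 (0.14), Trp53inp1 (0.03) and Mdm2 (0.01) but not by Bbc3 (-0.03) and Ccng1 (-0.0007). Of all genes tested, 52.1% were higher in the 4-week control pool.

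**Figure D2:**
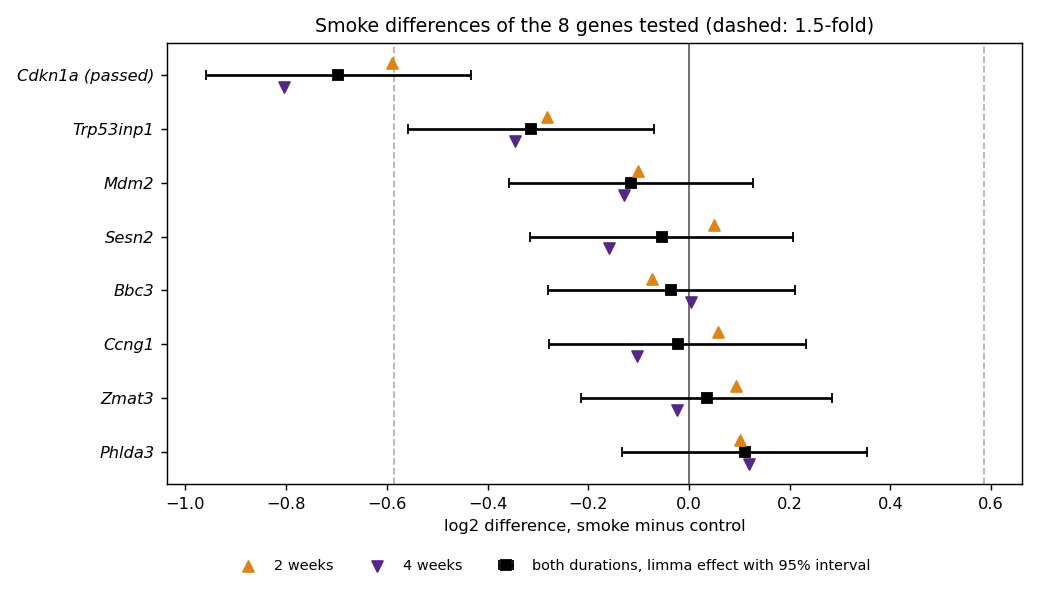
Log2 difference of smoke minus control for the 8 genes tested, with triangles for 2 and 4 weeks and squares for the limma effect over both durations with its 95% interval. Cdkn1a lies at -0.70 with both of its differences past the dashed 1.5-fold line, at -0.59 and -0.80, and the other 7 effects lie between -0.31 and 0.11.

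At least 1.5-fold differences between smoke and clean air were seen in 1 of the 8 genes at 2 weeks and in 1 at 4 weeks, Cdkn1a each time. Of all genes tested, 1.82% were higher and 1.22% lower by as much at 2 weeks (3.04% either way), and 2.53% were higher and 1.5% lower at 4 weeks (4.04%). At both durations 0.337% were lower by as much, Cdkn1a among them, and 1.13% higher. The 2-week difference of Cdkn1a lay just past that limit of 0.58 log2 units, at -0.59. No gene of the 8 changed its smoke difference by 1.5-fold between the durations, against 5.16% of all genes tested (3.49% more positive and 1.67% more negative at 4 weeks).

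The other genes of the pathway were taken from lists. Of 18 genes for p53 and its regulators, 16 were tested and 0 passed, and their effects ran from -0.17 to 0.34 with a median of -0.10. Trp53 is not analysed here. Mdm4, the partner of Mdm2 that also binds p53, had an effect of -0.17 ± 0.105. Ppm1d, the phosphatase that ends p53 signalling, had -0.12 ± 0.104. Mdm4, Ppm1d and the other genes given without a call in these paragraphs were picked for their role after the values were known. Of 40 further p53 targets 38 were tested, 1 fell, 0 rose and 37 did not pass, with a median of -0.06.

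The further target that fell was Btg2, which slows proliferation and is also an immediate early gene. Its intensity was 1217 in the 2-week smoke pool and 2325 in the 2-week control pool. At 4 weeks it was 956.1 in smoke and 2010.2 in control. Unlike Cdkn1a, both smoke pools lay below both control pools. Btg2 fell by 1.00 ± 0.104 (limma, adjusted p = 0.012), but the control pools differed by only -0.21, where Cdkn1a differed by 1.08. The death receptor gene Fas was at -0.48 ± 0.106 (limma, adjusted p = 0.125), the sestrin gene Sesn1 at -0.18 ± 0.104 and Perp, a membrane protein of cell death, at 0.03 ± 0.112.

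In the INK4, CIP/KIP and RB pathway, through which p16 and p21 act, 21 of 24 genes were tested and 1 fell, with a median of -0.06. That gene was Id1, an inhibitor of helix-loop-helix factors that can repress Cdkn2a. It had log2 differences of -0.62 and -0.66 and an effect of -0.64 ± 0.101 (limma, adjusted p = 0.043). The kinase inhibitor gene Cdkn1b, for p27, was at -0.19 ± 0.107. Lmnb1, the lamin B1 gene whose loss marks senescent cells, was at 0.22 ± 0.101 (limma, adjusted p = 0.491).

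Among secreted and other senescence-associated genes, 26 were tested from 36. Of these, 5 rose, 0 fell and 21 did not pass, with a median of 0.05 and a range of -0.91 to 1.61. Csf2, the growth factor GM-CSF, had an intensity of 215.8 in the 2-week smoke pool and 71.4 in its control, and 240.1 in the 4-week smoke pool and 77.8 in its control. It rose by 1.61 ± 0.101 (limma, adjusted p = 0.0022), and the smoke pools lay above both control pools. The cytokine gene Il1a rose by 1.36 ± 0.196, with differences of 0.94 and 1.79. The neutrophil chemokine gene Cxcl5 rose by 0.96 ± 0.101, the monocyte chemokine gene Ccl2 by 0.81 ± 0.133 (limma, adjusted p = 0.0498) and the protease inhibitor gene Timp1 by 0.74 ± 0.101. The Ccl2 call was lost with no floor (limma, adjusted p = 0.0585) and with a robust variance prior (0.0603), and that of Il1a with the robust prior (0.0944). Of the 26 effects 13 lay below 0, the lowest being Igfbp3 at -0.91 and Il1b at -0.73, which did not pass. The 5 genes that rose are also made by macrophages and epithelium outside senescence, and 5 of 8 alveolar macrophage and 5 of 10 monocyte and interstitial macrophage markers rose too. The part of these cells was not tested.

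Cell cycle genes that p21 holds down through the DREAM repressor complex went the other way from Cdkn1a in sign. Of 18 tested from 24, 18 had an effect above 0, where 48.6% of all genes tested did. Of these, 4 rose, 0 fell and 14 did not pass, and the median was 0.47. The proliferation marker gene Mki67 had an intensity of 1388 in the 2-week smoke pool and 711.2 in its control, and 1722 in the 4-week smoke pool and 576.8 in its control. The topoisomerase gene Top2a and the spindle genes Kif11 and Tpx2 rose by 0.87, 0.79 and 0.69. Over the 18 genes the median difference between the 4-week and the 2-week control pool was -0.02, against 1.08 for Cdkn1a. The part of p21 in these effects was not tested, nor was that of the cell types whose markers rose.

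ATF4, the transcription factor of the integrated stress response, shares Sesn2 with p53. Of 17 genes tested from a list of 18, which held Atf4 itself along with its targets, 1 rose and 16 did not pass, with a median of -0.01. The one that rose was Slc7a11, the cystine transporter that p53 is known to repress, by 1.27 ± 0.113 (limma, adjusted p = 0.0068). Atf4 itself was at -0.31 ± 0.101 (limma, adjusted p = 0.298).

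**Figure D3:**
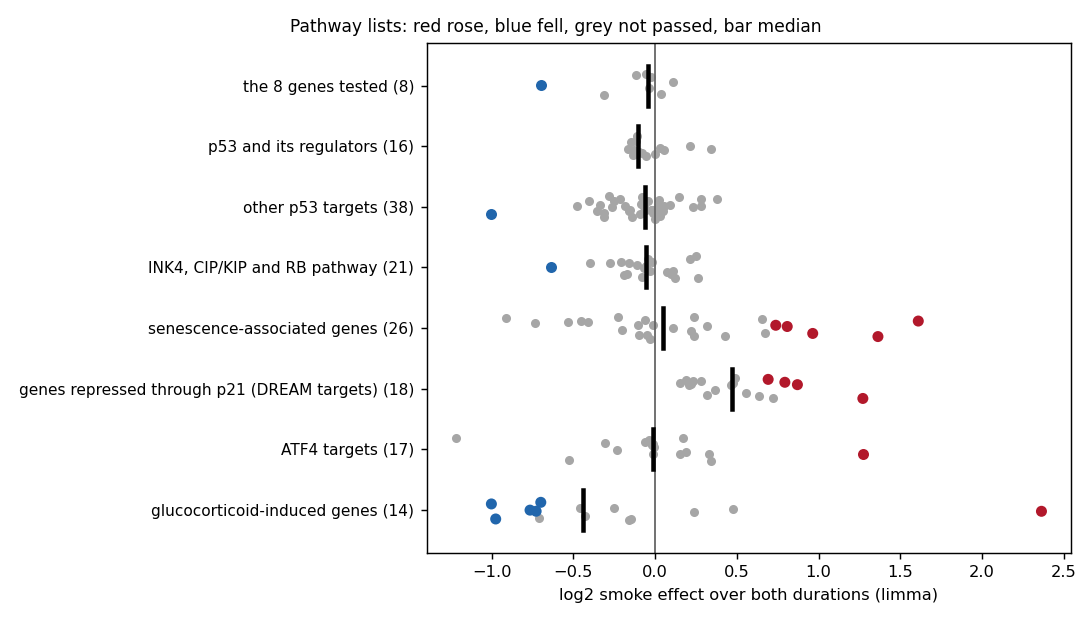
Log2 smoke effect over both durations (limma) of each gene tested, by list, with the number of genes in brackets and a bar at the list's median. Red points rose, blue fell and grey did not pass. The lists around p53 sit at medians of -0.10 to -0.05, the DREAM targets lie above 0 throughout, and glucocorticoid-induced genes have a median of -0.44.

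The genes whose pattern over the 4 arrays was most like that of Cdkn1a were found by the root mean square distance between log2 values, each gene centred on its own mean. The 5 nearest were Per1, a circadian repressor, at a distance of 0.117; Map3k6, a stress kinase, at 0.118; Angptl4, a regulator of lipoprotein lipase, at 0.122; Il1f9, an epithelial cytokine of the IL-1 family, at 0.216; and Tnfrsf12a, the receptor of the cytokine TWEAK, at 0.241. Per1 had log2 intensities of 10.57 and 11.35 in the 2-week and 4-week smoke pools, against 11.28 and 12.04 in the control pools. All 5, like Cdkn1a, were lowest in the 2-week smoke pool and highest in the 4-week control pool. They were picked for likeness to Cdkn1a on these same arrays, so a shared order and similar smoke effects were largely built in. Per1 fell by 0.70 (limma, adjusted p = 0.0321) and Tnfrsf12a by 0.66 (adjusted p = 0.0425), while the other 3 did not pass. Both calls were lost after median centring (adjusted p = 0.112 for Per1 and 0.122 for Tnfrsf12a) and cyclic loess (0.102 and 0.0997), and that of Tnfrsf12a also with no floor (0.0620). The distance rests on 4 arrays and is a description only.

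Per1 and Angptl4 belong to the list of 14 glucocorticoid-induced genes, which held no gene of the 10. Glucocorticoids, the stress hormones of the adrenal gland, are known to raise Cdkn1a as well. Of the 14, 5 fell, 1 rose and 8 did not pass. The list's median smoke difference was -0.48 at 2 weeks and -0.49 at 4 weeks, and its median difference between the 4-week and the 2-week control pool was 0.65. In all, 10 of 14 were lower in smoke at both durations, as were 29.3% of all genes tested, and 11 of 14 were higher in the 4-week control, as were 52.1%. Pdk4, a kinase that spares glucose, fell by 1.00 ± 0.114, Errfi1, a feedback inhibitor of EGFR, by 0.98 ± 0.110, Klf9 by 0.77 ± 0.125 and the phosphatase gene Dusp1 by 0.73 ± 0.102. Between the control pools Errfi1, Dusp1 and Klf9 differed by -0.19, -0.08 and 0.22, where Cdkn1a differed by 1.08. Of the 8 that were at least 1.5-fold higher in the 4-week control, Mt2 (1.99), Mt1 (1.06) and Lcn2 (0.87) had smoke effects above 0. Per1, Pdk4, Angptl4, Fkbp5 and Tsc22d3 had effects below 0. The medians in smoke and between controls thus rest partly on different genes, and include Per1 and Angptl4, picked for likeness to Cdkn1a. The 8 that did not pass were Cebpd at -0.71, Angptl4 at -0.46, Tsc22d3 at -0.43, Zbtb16 at -0.25, Fkbp5 at -0.16, Sgk1 at -0.15, Mt1 at 0.24 and Mt2 at 0.48. The gene that rose, Lcn2, encodes the siderophore-binding lipocalin 2 and had the largest effect of the 14, at 2.36 ± 0.135 or 5.15-fold higher (limma, adjusted p = 0.0018). The part of these hormones in the level of Cdkn1a was not tested.

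**Figure D4:**
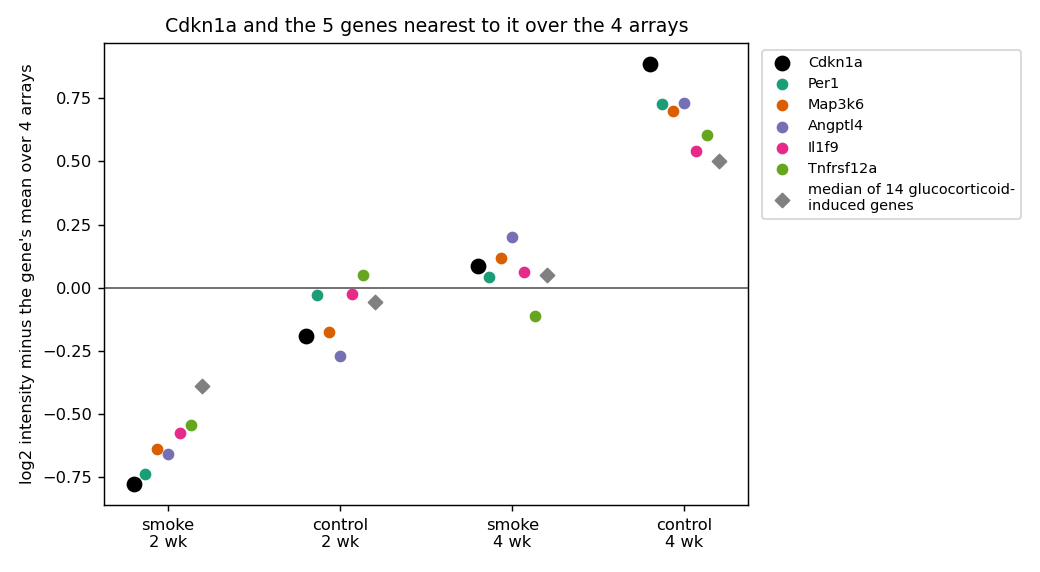
Log2 intensity minus each gene's own mean over the 4 arrays, for Cdkn1a, the 5 genes nearest to it and the median of 14 glucocorticoid-induced genes, by pool. Cdkn1a runs between -0.78 in the 2-week smoke pool and 0.89 in the 4-week control pool, and the list's median between -0.39 and 0.50.

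Of the 17 genes named from these lists by size that had passed, 2 still passed after cyclic loess, Csf2 and Lcn2, and 0 after median centring. With no floor 13 still passed, and with a robust variance prior 14. Of all genes tested 265 passed, against 24 after cyclic loess and 8 after median centring, so calls were lost across the array and not only here. The direction of these 17 effects was the same under both scalings.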

How the data were processed

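Whole-lung RNA pools of 4 or 5 mice were measured on 4 arrays, 1 per group, grouped by sample title. The deposited table gives linear intensity. For it the submitters' processing notes list RMA and, at version 1.4.1, Affymetrix Expression Console. Build and filters: not given in the sources used here. The log2 of every value over 1000 was whole at decimal 6 (within 0.01 of its unit) for 100% of values, against 2.01% with the natural log, so the linear values were made with base 2. Between 541 and 581 features per array exceed 65535, the largest 16-bit value, so the signal may have been stretched by a step not given, which would change the folds. The log2 was taken here.

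Of 65956 features, 30604 had 1 symbol, 2146 several and 33206 were not listed in the annotation. Symbols were updated by Entrez ID through RefSeq (22815 matched, 827 changed). The feature with the highest mean was used per gene. limma 3.58.1 (lmFit, eBayes, R 4.3.3) was fitted on 18084 genes, 301 of which shared all 4 values with another gene. The 2 pools of a comparison within a duration have no test. On simulated data with 18084 genes and 200 changed, 35.8% of genes changed 1.5-fold and 96.7% of those changed 2-fold were recovered, and 9.1% of calls were false. Promoters are RefSeq's. The table held 0 columns of other samples.

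The 10 genes, the lists and the tests were chosen with earlier results of these data known. Named from the lists were the called genes (up to 5 a list, 3 for cell markers), genes past 1.5-fold at both durations (up to 3) and the 5 genes nearest to Cdkn1a. Alternatives were another scaling, floor, gene set, feature rule, model, variance prior or log base, and each pool left out.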

Additional observations from a re-analysis of the deposited data

Results flagged for a closer look

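In 4 of the 8 genes tested the smoke difference had opposite signs at 2 and 4 weeks. The largest of their differences was that of Sesn2 at 4 weeks, at -0.16. The share of all genes tested with opposite signs was not counted, so whether 4 of 8 is unusual cannot be told. The change, 4-week minus 2-week difference, was 0.078 log2 units for Bbc3, -0.16 for Ccng1, -0.21 for Sesn2 and -0.12 for Zmat3. With 1 pool per group these differences between durations were not tested, and each was smaller than the change seen in at least 37.3% of all genes tested.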

How the results depend on the processing

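The natural log only rescales the values, so it could not change the calls. Cdkn1a had 1 feature, so the mean over features could not change its effect. The Cdkn1a call, the 1 call among the 8 genes, was kept in both. It was also kept with a floor at the 60th percentile, protein-coding genes only (limma, adjusted p = 0.000431) and the trended or robust prior. It was lost (0 calls) after median centring, cyclic loess, with no floor, without the duration term and without each pool in turn (0 to 0 calls), where the effect stayed negative, between -1.24 without the 2-week control and -0.16 without the 4-week control. Those fits drop the duration term and assume that the lone pool of a group varies like the other group. The count past 1.5-fold was 0 at 2 weeks after cyclic loess. It was 0 at 2 and at 4 weeks on the natural log scale, where Cdkn1a lay at -0.41 and -0.56. The limit was kept there at 0.58, the log2 of 1.5. This treats natural log values as log2 values, which the decimals of the file contradict, so these counts show no loss of the 1.5-fold difference. Calls among all pathway list genes numbered 18, against 0 after median centring, 2 after cyclic loess, 42 with protein-coding genes only, 0 without the duration term and 0 to 3 without a pool. Effects that did not pass changed sign for Ccng1 (0.025 after cyclic loess, and between -0.10 and 0.058 without a pool), Zmat3 (-0.10 to 0.17 without a pool), Sesn2 (-0.21 to 0.10) and Angptl4 (-0.96 to 0.044). The cause of these changes was not tested. No paired analysis was possible beyond the duration term, which already sets the smoke and control pools of each duration against each other, because the labels number no replicates; the fit without that term is the unpaired form. No background value per feature was used, so how far dim genes such as Cdkn2a exceed background is unknown.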
